A study of Mus musculus with 3 samples.

Results

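The genes described here encode the proteins of the mitochondrial ribosome that carry an Mrpl (large subunit) or Mrps (small subunit) symbol. They were chosen by symbol alone, as every counted gene named Mrpl or Mrps followed by a number and, in some, a letter from a to c. This gave 77 of 24421 counted genes, 48 of the large and 29 of the small subunit, and no read count entered this rule. The family itself was chosen with earlier results of these data known. RNA-Seq was done on EL16.7, an undifferentiated female mouse embryonic stem (ES) cell line with the background F2:129S1/CastEiJx 129S1 and a wild type genotype, grown with LIF on γ-irradiated embryonic fibroblasts of Tg(DR4)1Jae/J mice. All 3 libraries came from cells that received lentivirus and were then kept for 2 days in puromycin at 2 μg/ml: a control library with a scramble shRNA, and the KD-1 and KD-2 libraries, each with a different shRNA against NUP153, a protein of the nuclear pore. Each condition was 1 library, so KD-1 and KD-2 differ in the shRNA as well as in the culture, and fibroblast RNA can be present in every library. The comparisons asked how the transcripts of these genes differed between control and NUP153-deficient cells.

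Mitochondria translate a small set of mRNAs, all from their own genome and nearly all for membrane subunits of the respiratory chain and of the ATP synthase, on a ribosome of their own. The rRNAs of this ribosome are mitochondrial transcripts, while every one of its proteins is encoded in the nucleus, made in the cytosol and imported. Part of the proteins descend from bacterial ribosomal proteins, and the rest were added during the evolution of mitochondria and are called mito-specific here. ES cells rely to a large extent on glycolysis, and respiration gains weight as they differentiate.

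Reads on genes numbered 69839336 to 85258834 per library. Between 4 and 5 reads in every 1000 were on the 77 genes, and each gene had at least 723 reads in every library. Nup153, the targeted gene, had 27870, 16451 and 11126 reads, in the order control, KD-1 and KD-2 that is kept wherever 3 values of a gene are given. After each library was scaled by the upper quartile of its counts, which gives the normalised reads used throughout, its ratio to control was 0.504 for KD-1 and 0.371 for KD-2, so both knockdown libraries were lower than control. The 12 fibroblast marker genes (collagens, Postn, Dcn, Lum, Thy1, Pdgfrb, Acta2 and Tagln) summed to 1545, 689 and 3169 CPM, counts scaled to the total of reads on genes, and all 12 had reads in each library. The 12 ES cell markers (among them Pou5f1, Sox2 and Nanog) summed to 4888, 5341 and 4048 CPM. One by one they were mixed, with 10 higher and 2 lower than control in KD-1, and 5 higher and 7 lower in KD-2. Fibroblast reads were thus lowest for KD-1 and highest for KD-2, and the part of this in the values below was not tested. Fewer cells of a type and less RNA per cell cannot be told apart in these libraries.

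Promoters were searched because genes of mitochondrial ribosomal proteins are known to be bound by NRF1, GABPA and YY1, factors of nuclear genes for mitochondria. RefSeq (GRCm38.p6) gave a window of 250 bases before and 50 bases after the start for 68 of the 77 genes and for 16080 genes in all. Both strands were searched, and matches of different motifs may overlap. The NRF1 motif, GCGCA and GCGC with any 1 base between them, was found in 13 of the 68 promoters (19.1%) and in 7.06% of all promoters. The GABPA (ETS) motif CCGGAAG was in 23 (33.8%, against 12.5% of all), and the YY1 motif AAGATGGCG in 8 (11.8%, against 2.08%). The E-box CACGTG, bound by MYC, was in 5 (7.35%, against 8.2%), the GC box GGGCGG, bound by SP1, in 34 (50%, against 49%), and the TATA box TATAAA in 4 (5.88%, against 12.8%). These shares are counts of letters, and their differences were not tested. Of the 23 genes with the GABPA motif 13 belonged to the large and 10 to the small subunit, out of 42 and 26 with a window. The stretches printed here are the 150 bases just before the start, for the 2 genes with the lowest and the 2 with the highest ratio of KD-2 to control among the 18 genes in which no exon lies in that stretch. They were chosen after their ratios were seen, so that promoters from both ends of the range can be read. The fifth stretch is the 170 bases that separate the RefSeq start of Mrps12 from the GENCODE start of Sars2, a mitochondrial aminoacyl-tRNA synthetase gene on the other strand. Capitals mark matches to any of the 6 motifs on either strand, and each sequence is read on the strand of the named gene.
Mrpl42, chr10:95501950-95502099, minus strand: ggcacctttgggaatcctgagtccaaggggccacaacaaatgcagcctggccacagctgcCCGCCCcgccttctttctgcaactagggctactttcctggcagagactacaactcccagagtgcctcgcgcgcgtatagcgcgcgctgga
Mrpl45, chr11:97315566-97315715, plus strand: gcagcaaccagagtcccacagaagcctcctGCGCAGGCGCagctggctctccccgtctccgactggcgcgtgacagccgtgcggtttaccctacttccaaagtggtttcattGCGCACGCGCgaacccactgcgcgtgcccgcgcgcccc
Mrpl52, chr14:54426759-54426908, plus strand: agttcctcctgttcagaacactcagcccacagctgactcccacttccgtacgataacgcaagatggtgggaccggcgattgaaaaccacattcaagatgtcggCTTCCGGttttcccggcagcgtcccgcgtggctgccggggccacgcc
Mrpl2, chr17:46646079-46646228, plus strand: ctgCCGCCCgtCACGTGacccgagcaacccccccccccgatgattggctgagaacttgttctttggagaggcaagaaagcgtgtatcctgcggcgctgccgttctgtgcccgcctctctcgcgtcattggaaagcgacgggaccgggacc
Mrps12, chr7:28741822-28741991, minus strand: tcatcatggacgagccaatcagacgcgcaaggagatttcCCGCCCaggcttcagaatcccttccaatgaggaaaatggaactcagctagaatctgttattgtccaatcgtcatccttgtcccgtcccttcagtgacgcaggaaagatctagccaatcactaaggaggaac
Within the printed stretches, Mrpl45 holds the NRF1 motif at 2 places, Mrpl52 holds a GABPA motif close to its start, Mrpl2 holds an E-box beside a GC box, and the stretches of Mrpl42 and Mrps12 hold a GC box. In the full window, Mrpl42 also has a YY1 match and Mrps12 a GABPA match. A match is a run of letters and not a measured binding site.

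In control cells the genes spanned a wide range of levels. Levels are given as RPKM, reads scaled to the exon length of the gene and to the reads on all genes, which can be compared between genes. The median was 32.3 RPKM, with quartiles of 21.8 and 49.3 and a range from 7.10 to 209. Large subunit genes had a median of 33.5 RPKM and small subunit genes of 31.4, and the quartiles of the small subunit genes (22.8 to 37.4) lay inside those of the large subunit genes (20.9 to 56.2). Mrpl42, a mito-specific protein, had the highest level, with 209, 204 and 151 RPKM. It was followed by Mrpl18, a bacterial-type protein of the L18 family that sits near the structural RNA of the central protuberance, with 145, 115 and 107 RPKM. Mrpl33 had 136, 119 and 120 RPKM, Mrpl20 had 111, 93.8 and 91.4 RPKM, and Mrps21 had the highest level of the small subunit genes with 91.7, 79.9 and 88.4 RPKM. These 5 genes have short exon unions, of 478 to 1219 bases, where the median of the 77 is 1363.

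The lowest levels in control were those of Mrps26 (7.10 RPKM), Mrpl48 (8.50), Mrps17 (8.85), Mrpl57 (9.11) and Mrpl3 (12.2). Mrpl3 is a bacterial-type protein that reaches towards the catalytic centre of the large subunit, and Mrps17 is a primary rRNA-binding protein of the small subunit. Their exon unions are long, from 2877 to 6003 bases. In the knockdowns Mrps26 had 7.66 and 8.56 RPKM, whereas Mrpl48 had 8.33 and 6.48. Counting error was small at these depths, with interval half-widths near 0.07 on the log2 scale for ratios, but neighbours in this order were not replicated. The order also depended on which exons were counted as part of a gene. With the exons of the full annotation in place of the basic one, Mrpl33 moved from rank 3 to rank 67, Mrpl42 from 1 to 15 and Mrps10 from 50 to 77, while Mrpl18 stayed within the 2 highest and Mrpl48 kept rank 76. With the basic annotation the order was nearly the same in all libraries, with a Spearman rho across the 77 genes of 0.984 between control and KD-1 and 0.927 between control and KD-2. All libraries use the same exon lengths, so these correlations are a description.

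**Figure D1:**
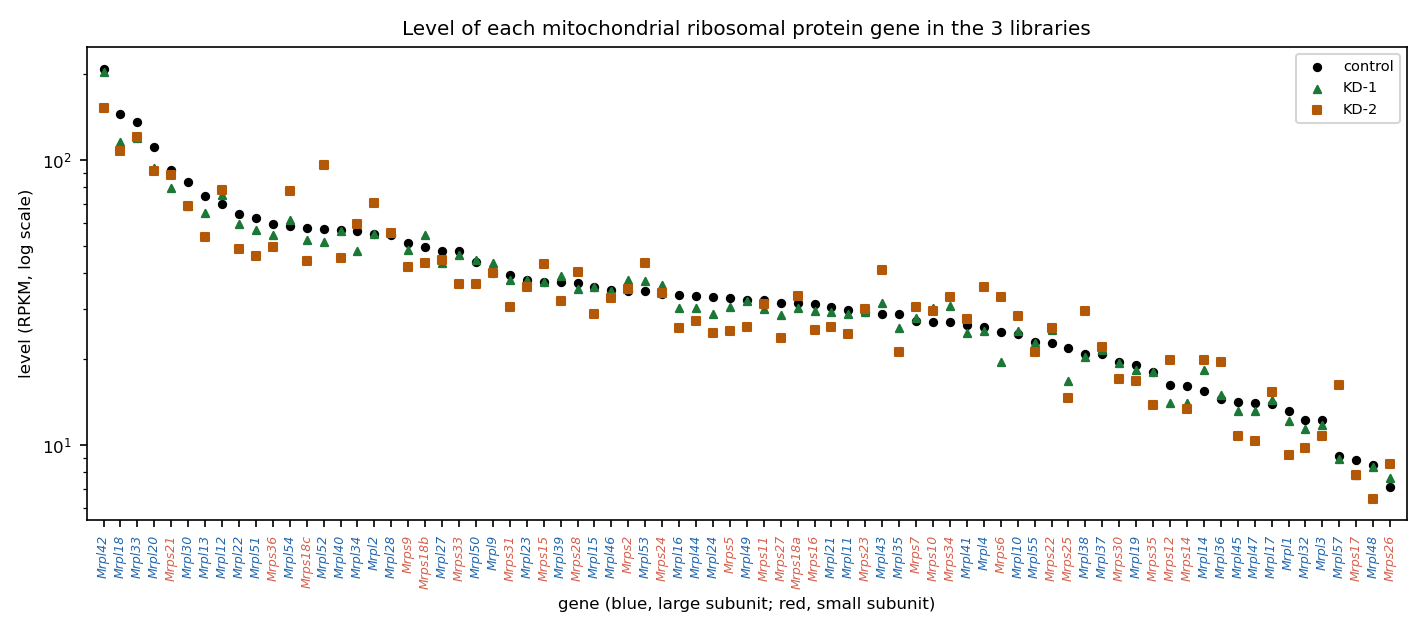
Level of each of the 77 genes in RPKM (log scale) in control (circles), KD-1 (triangles) and KD-2 (squares), 1 library each, with genes ordered by their level in control. Levels span from 7.10 to 209 RPKM in control, and the order of levels in control has a Spearman rho of 0.984 with KD-1 and 0.927 with KD-2.

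The NUP153 KD-1 library had the mitochondrial ribosomal protein transcripts at nearly the level of the control library. The median ratio over the 77 genes was 0.972, a log2 ratio of -0.04, with quartiles of -0.13 and 0.04. This median was -0.11 with DESeq2 size factors, where that of all genes was -0.05, and -0.06 within GC bins. At the threshold of 1.5-fold used for every ratio here, 0 of the 77 lay above control and 0 below. Of the 16670 genes averaging 10 or more reads, 8.63% were higher and 5.62% lower. Over all these genes the median log2 ratio was 0.02, and the interquartile range was 0.39 against 0.18 for the 77. Since genes with few reads vary more, the 77 were also set beside the 7244 genes with a mean read count in their range. Of those, 1.37% were higher and 3.16% lower by more than 1.5-fold, and their interquartile range was 0.27.

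The 5 lowest ratios in KD-1 belonged to both subunits. Mrps25, a mito-specific small subunit protein, had 10357 normalised reads against 7997 after knockdown, a log2 ratio of -0.37 with a 95% counting interval from -0.42 to -0.33. Mrps6, a bacterial-type protein of the small subunit platform, had 1651 and 1296 normalised reads, a log2 ratio of -0.35 (interval -0.46 to -0.24). Mrpl18 followed at -0.33, Mrpl30 at -0.28 and Mrpl20 at -0.24, all of bacterial type. None of these intervals held 0, but they cover the counting of reads only and not the spread between cultures. Mrps25 was the gene closest to the threshold in this comparison, at a ratio of 0.772.

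At the other end Mrpl14 had 781 normalised reads against 932 after knockdown, a log2 ratio of 0.25 (interval 0.11 to 0.39), and it had the fewest reads of the 77. Mrpl14 lies at the face of the large subunit that meets the small one, where it also binds assembly factors. The next were 4 small subunit genes, Mrps34 at 0.20, Mrps10 at 0.17, Mrps22 at 0.16 and Mrps18b at 0.15. Counting intervals lay above 0 for 15 genes (19.5%, against 28.3% of all genes and 32.8% of those in the same range of reads). They lay below 0 for 31 (40.3%, against 26.7% and 37.7%), and held 0 for 31. Large subunit genes had a median log2 ratio of -0.03 and small subunit genes of -0.06.

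The NUP153 KD-2 library had lower levels of most mitochondrial ribosomal protein transcripts, and the genes differed more among themselves. The median ratio to control was 0.792, a log2 ratio of -0.34, with quartiles of -0.49 and -0.02, and 58 of the 77 were below 0 (75.3%, against 51.7% of all genes and 60.5% of those in the same range of reads). Past 1.5-fold, 8 genes were lower (10.4% of the 77, against 10.2% of all genes with at least 10 reads) and 2 were higher (2.60%, against 17.1%). Of the 7244 genes in the same range of reads, 7.81% were lower and 9.36% higher. The share of members past 1.5-fold lower was thus near that of all genes, while at a fold of 25% above 1 40 of the 77 were lower, against 26.9% of all genes. Over all genes the median was -0.02 with an interquartile range of 0.75, and over the genes of like read counts it was -0.11 with an interquartile range of 0.56. Counting intervals lay below 0 for 51 of the 77 (66.2%, against 36.4% of all genes and 53% of those of like read counts), above 0 for 14 (18.2%, against 31.5% and 32.6%), and held 0 for 12. With no other scaling, the 77 genes together made up 4635, 4423 and 4147 CPM. With library totals in place of the upper quartile as scaling, the median of the 77 was -0.18 and that of all genes was 0.14, and 0 of the 77 were lower by 1.5-fold (4.92% of all genes were). With TMM or DESeq2 size factors 3 were lower (8.35% and 8.49% of all genes).

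Of the 8 genes lower in KD-2 by more than 1.5-fold, 7 belong to the large subunit. Mrps25, the exception, had 10357, 7997 and 6194 normalised reads, a ratio of KD-2 to control of 0.598 (log2 -0.74, interval -0.79 to -0.70). The gene lies at chr6:92169525-92184033 on the minus strand (GRCm38, as all gene positions here). It was the lowest of the 77 in both knockdowns, and its exons overlap those of Nr2c2 on the other strand. Mrpl1 (chr5:96209493-96266727, plus strand), the bacterial-type protein of the mobile stalk on the side where tRNA leaves, had 4406, 4082 and 2770 normalised reads, a ratio of 0.629. Mrpl13 (chr15:55534094-55557748, minus strand), the counterpart of bacterial L13, had 7148, 6241 and 4604, a ratio of 0.644, and it overlaps Mtbp on the other strand. All 3 genes were lower in KD-2 than in KD-1 and lower in KD-1 than in control. Relative to genes of like GC content, their log2 ratios of KD-2 to control were -0.56 (Mrps25), -0.38 (Mrpl1) and -0.61 (Mrpl13). Of these 3, only Mrpl13 stayed past 1.5-fold in that setting.

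Mrpl42 (chr10:95480805-95501940, minus strand) had 11083, 10879 and 7200 normalised reads, a ratio of KD-2 to control of 0.650. For this gene the interval in KD-1 held 0, and its ratio of KD-2 to KD-1 was the lowest of the 77 (log2 -0.60). Mrpl47, the counterpart of bacterial L29 beside the exit of the peptide tunnel, had 3697, 3483 and 2422, a ratio of 0.655. Mrpl51, a mito-specific protein, had 16787, 15280 and 11072 normalised reads and a ratio of 0.660, and it had the most reads of the 77 in control. Mrpl18 (13833, 11040 and 9155) and Mrpl35 (8344, 7533 and 5528) each had a ratio of 0.662. Mrpl24, with a log2 ratio of -0.58 and normalised reads of 4032, 3512 and 2689, lay just short of the threshold. Overlap with another counted gene on the other strand was present for Mrpl47 (Actl6a and Ndufb5), Mrpl18 (Tcp1) and Mrpl24 (Rrnad1), and on the same strand for Mrpl51 (Mir3098). Reads of such pairs could not be separated here, and reads shared with pseudogenes, where present, depend on the mapping quality filter of the authors.

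The 2 genes higher in KD-2 by more than 1.5-fold were both of the large subunit and did not overlap another counted gene. Mrpl57, a short protein also called MRP63 and encoded at chr14:57826234-57829296 on the plus strand, had 2049, 2025 and 3256 normalised reads, a ratio of KD-2 to control of 1.59 (log2 0.67, interval 0.59 to 0.75). Mrpl52, on the same chromosome at chr14:54426909-54429756, had 2198, 1984 and 3308, a log2 ratio of 0.59 (interval 0.51 to 0.67), and it was the gene just past the threshold. The threshold lay inside the counting interval of 7 of the 10 members past it, Mrpl13, Mrpl18, Mrpl35, Mrpl42, Mrpl47, Mrpl51 and Mrpl52, and of 10 of the 67 short of it. For Mrpl57 the control and KD-1 libraries were alike and KD-2 stood apart. The next highest were Mrpl43 with normalised reads of 3146, 3466 and 4028 (log2 0.36), Mrpl38 with 2303, 2253 and 2914 (log2 0.34), and Mrpl4 with 2606, 2534 and 3221 (log2 0.31). Relative to genes of like GC content, Mrpl57 was at 0.90, Mrpl52 at 0.35, Mrpl43 at 0.38, Mrpl38 at -0.02 and Mrpl4 at -0.26. Mrpl52 was thus short of 1.5-fold in that setting. Mrpl4 is the counterpart of a bacterial protein that lines the peptide tunnel, and Mrpl38 is a mito-specific protein of the central protuberance. Mrpl43 shares exon sequence with Peo1, the mitochondrial helicase gene, on the other strand.

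**Figure D2:**
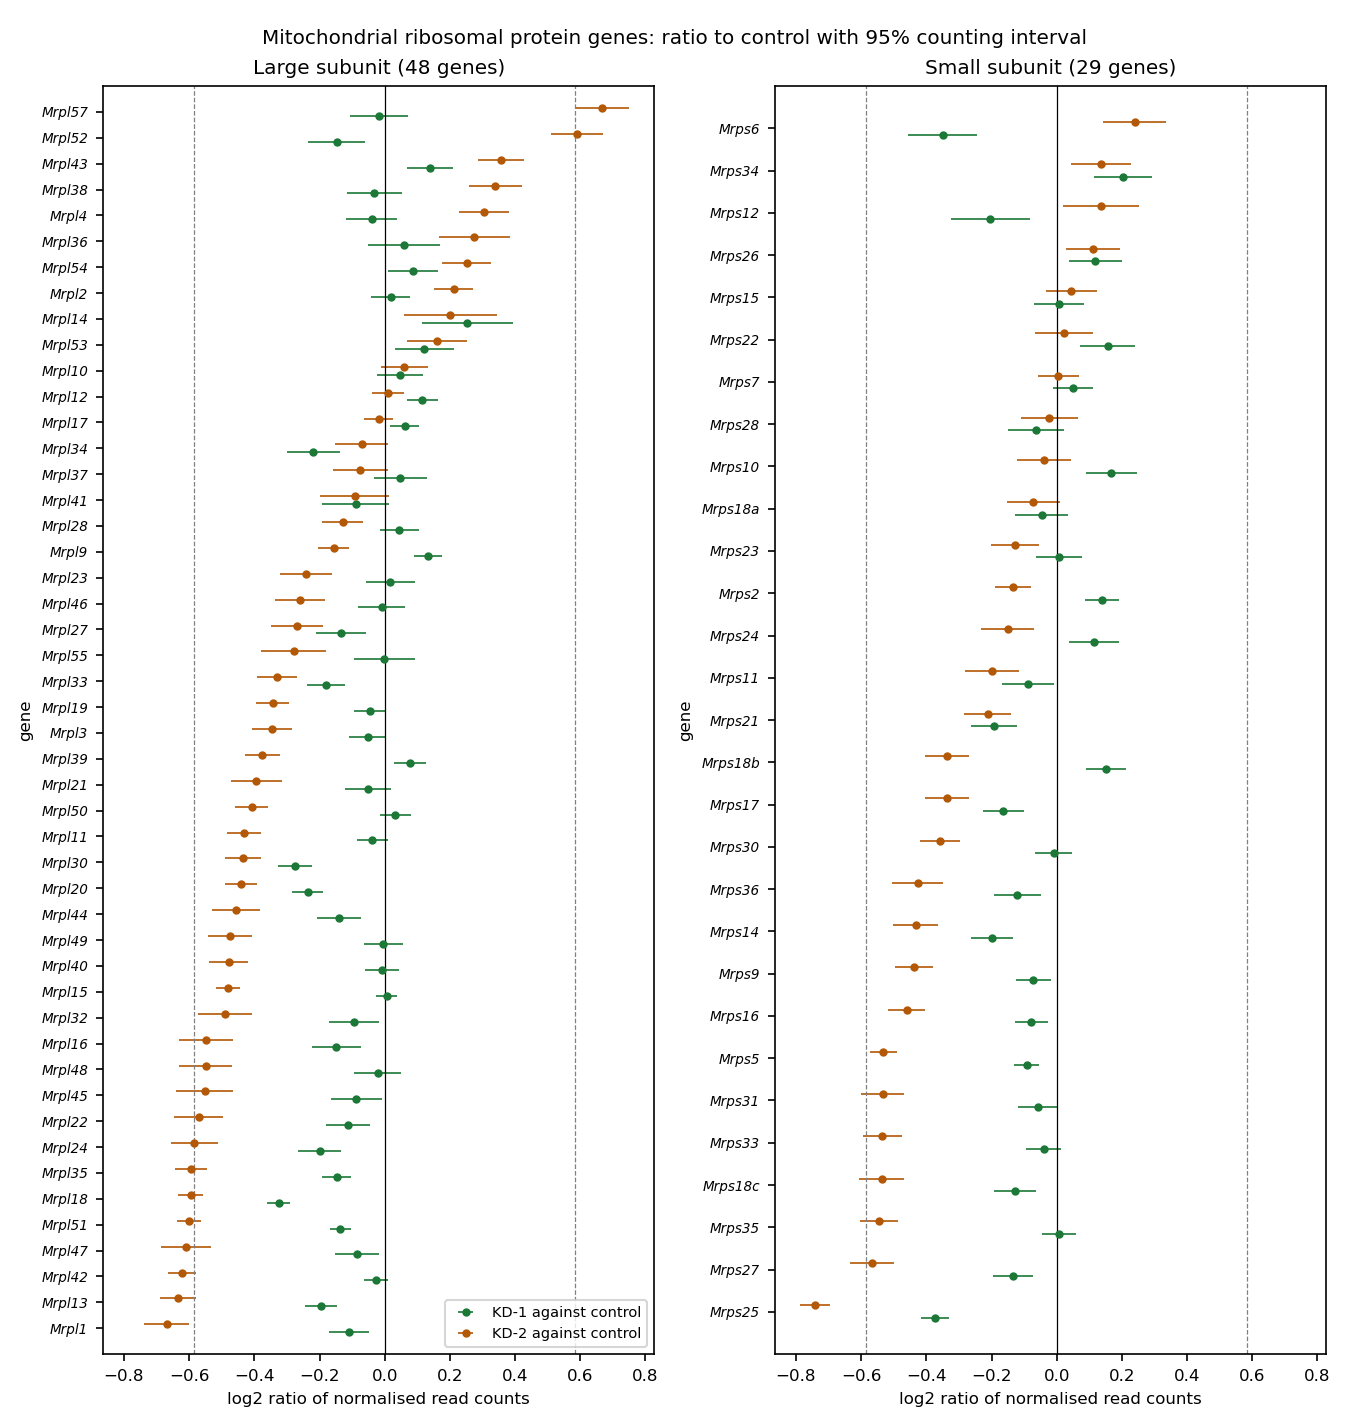
Log2 ratio of normalised reads to control for each gene in KD-1 (green) and KD-2 (orange), with 95% counting intervals as bars, large subunit left and small subunit right, ordered by the KD-2 ratio. Dashed lines mark 1.5-fold; no KD-1 point lies beyond them, and in KD-2 8 genes lie beyond the lower and 2 beyond the upper line.

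The 2 knockdown libraries were also set against each other, since both carry an shRNA and selection. The median log2 ratio of KD-2 to KD-1 was -0.27 over the 77 genes and -0.12 over all genes with at least 10 reads. Past 1.5-fold, 3 of the 77 were higher in KD-2 (3.90%, against 16.1% of all genes) and 1 was lower (1.30%, against 13.9%). The higher ones were Mrpl52 (log2 0.74), Mrpl57 (0.68) and Mrps6 (0.59), and the lower one was Mrpl42 (-0.60). Mrps6 (chr16:92058270-92112227, plus strand) had 1651, 1296 and 1949 normalised reads, so that the knockdown libraries lay on opposite sides of control, and its exons overlap those of Slc5a3 on the same strand. Just short of the threshold was Mrpl1 with a log2 ratio of -0.56.

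With both knockdown libraries as 1 group against control, no member passed edgeR's quasi-likelihood test. At an adjusted p under 0.05, 0 of the 77 and 0.00945% of 21164 genes with a read passed, and at an unadjusted p under 0.05, 0 of the 77 and 264 of all 21164. The Wald test of DESeq2 likewise gave 0 members at either threshold, with 82 of all genes at an unadjusted p under 0.05. The lowest p of a member in the quasi-likelihood test was that of Mrps25, 0.209 (adjusted p = 1.00), with 1 residual degree of freedom. Mrpl18, Mrpl13, Mrpl24 and Mrpl1 followed in the same test with p from 0.306 to 0.397. The spread in this test comes from KD-1 and KD-2, which carry different shRNAs. Over the members the median log2 ratio of KD-2 to KD-1 was -0.27. A member that missed the threshold is therefore not shown to be equal in control and knockdown cells.

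**Figure D3:**
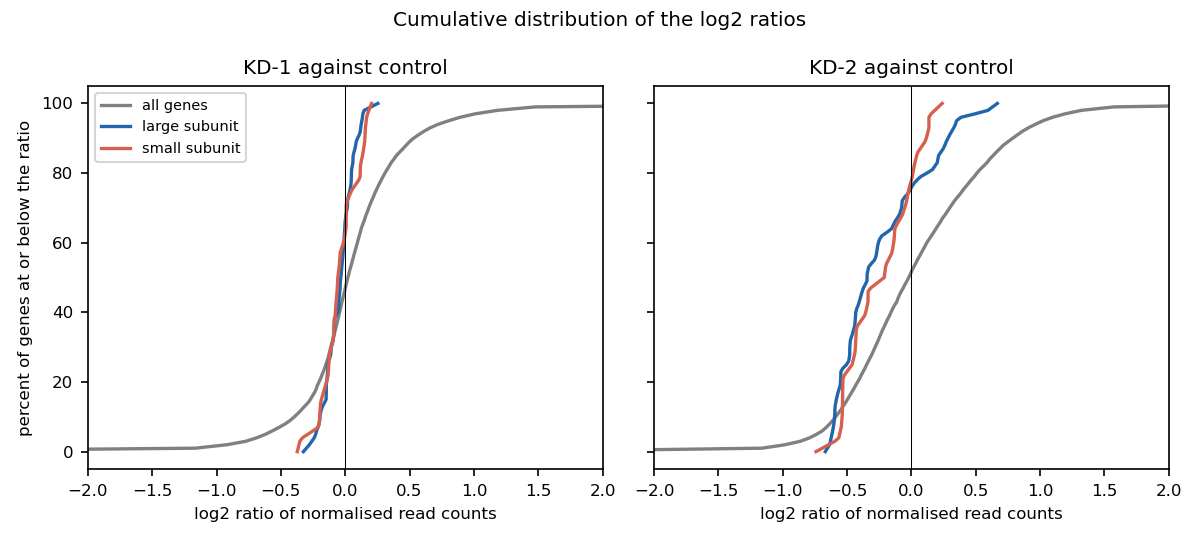
Percent of genes at or below each log2 ratio to control for large subunit genes (blue, 48), small subunit genes (red, 29) and all genes averaging 10 or more reads (grey, 16670), for KD-1 (left) and KD-2 (right). In KD-1 both subunits lie around 0 and are narrower than all genes; in KD-2 the medians are -0.34 for the large subunit, -0.21 for the small subunit and -0.02 for all genes.

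Large and small subunit genes were then set side by side. In KD-2 the median log2 ratio was -0.34 for the 48 large subunit genes (quartiles -0.50 and -0.01) and -0.21 for the 29 small subunit genes (quartiles -0.46 and -0.02). The large subunit ranged from -0.67 to 0.67 and the small from -0.74 to 0.24, and 7 of 48 (14.6%) and 1 of 29 (3.45%) were lower past 1.5-fold, against 10.2% of all genes, with no test of this difference. Within GC bins 1 of each subunit was lower, and with library totals 0 were. The gap of -0.13 was -0.01 without the 18 members whose exons overlap another counted gene, and -0.05 when each gene was set relative to genes of like GC content. Summed reads of the large subunit were 2.00, 2.00 and 2.03 times those of the small subunit in control, KD-1 and KD-2. MRPS30 and MRPS18A carry small subunit names but sit in the large subunit in structures of the mammalian ribosome. Mrps30 had 5070, 5040 and 3952 normalised reads (log2 ratio of KD-2 to control -0.36), and Mrps18a had 2542, 2462 and 2419 (-0.07). Mrps18a, Mrps18b and Mrps18c encode related proteins of the S18 family. Mrps18b had 4160, 4623 and 3295 normalised reads (log2 0.15 for KD-1 and -0.34 for KD-2), and Mrps18c had 4220, 3861 and 2908 (-0.13 and -0.54). Among these 3 paralogs only the interval of Mrps18a held 0 in both knockdowns, and the paralogs were not tested against each other. The KD-2 ratio of Mrps18a was 0.09 with library totals. Mrps36, whose protein is now assigned to the oxoglutarate dehydrogenase complex, had a log2 ratio of -0.12 for KD-1 and -0.43 for KD-2.

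Groups of members by position and origin were described in the same way. The stalk recruits translation factors, and its 4 genes (Mrpl10, Mrpl11, Mrpl12 and Mrpl53) had a median log2 ratio in KD-2 of 0.04, with Mrpl11 at -0.43 and Mrpl53 at 0.16 as the extremes. Within GC bins this median was -0.07. Mrpl12, whose protein also binds the mitochondrial RNA polymerase, had 7184, 7782 and 7233 normalised reads. Around the exit of the peptide tunnel, where nascent proteins meet the inner membrane, the 7 genes listed, which do not include Mrpl47 (-0.61), had a median of -0.46, from -0.58 (Mrpl24) to -0.02 (Mrpl17), and 0 of 7 were above 0 (Mrpl17 was at 0.21 within GC bins). Mrpl45, which binds the ribosome to the membrane, had 2677, 2521 and 1825 normalised reads (log2 ratio of KD-2 to control -0.55). Bacterial-type large subunit genes (30) had a median of -0.34 and mito-specific ones (17) of -0.38, with Mrpl57 (0.67) in neither list. In the small subunit the 16 bacterial-type genes had a median of -0.17 and the 9 mito-specific ones of -0.53 (Mrps18a, Mrps18b, Mrps30 and Mrps36 were in neither list), with overlapping ranges of -0.54 to 0.24 and -0.74 to 0.14. Within GC bins these small subunit medians were -0.15 and -0.32. In KD-1 the medians of these 6 groups were between -0.09 and 0.08.

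Ratios in KD-2 went with the GC content of the transcript. The median GC content of the 77 was 50.1% (39.6 to 60.6%). Members under the median of 50.1% (38 genes) had a median log2 ratio of -0.47 in KD-2 and -0.06 in KD-1, and the other 39 had -0.07 and -0.01. All genes showed the same direction in KD-2, with -0.18 below and 0.14 above that GC content. Across the 77 genes, Spearman's rho between GC content and the log2 ratio was 0.588 in KD-2 and 0.21 in KD-1, and across 16515 genes 0.343 and 0.12, as a description within the same libraries. Members with more reads had lower ratios in KD-2 (rho -0.534), as had members with longer exons (rho -0.38), and across all genes these values were -0.26 and 0.0479. When the median of all genes of the same GC bin (20 bins) was subtracted, the median of the 77 in KD-2 was -0.26, with 67 of 77 below 0, and 2 genes (Mrpl13 and Mrps27) lay past 1.5-fold lower and 1 (Mrpl57, at 0.90) higher, against 7.28% and 15.9% of all genes so centred. Mrpl57 had one of the lowest GC contents of the 77 (42.3%) and the highest ratio. This setting was chosen after the data were seen, and the part of GC content in the ratios was not tested.

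**Figure D4:**
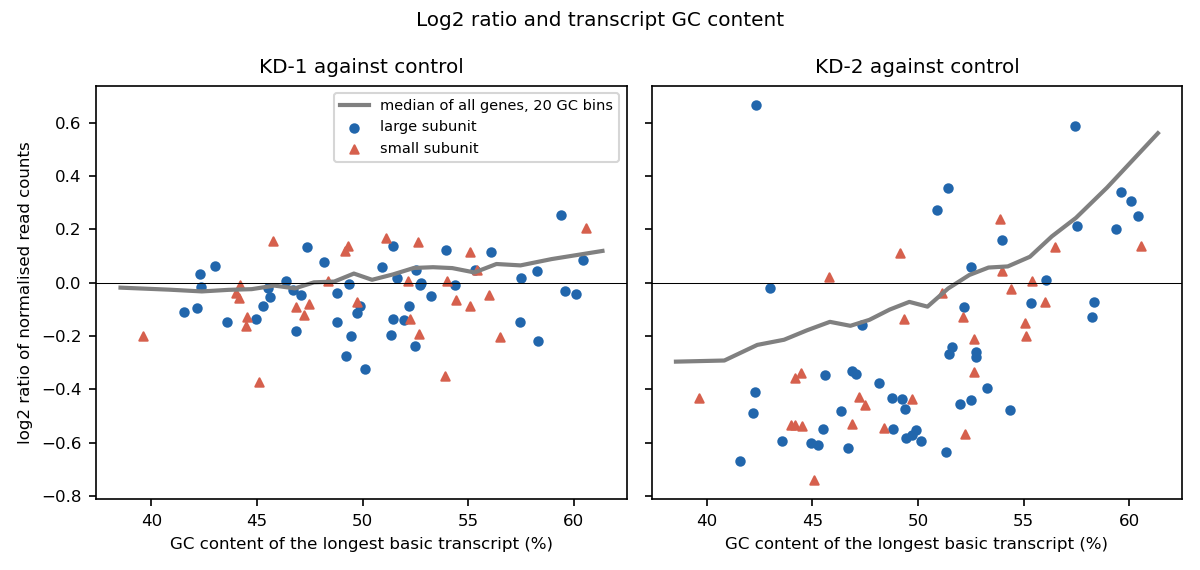
Log2 ratio to control of each member against the GC content of its longest transcript, large subunit as blue circles and small subunit as red triangles, with the median of all genes in 20 GC bins as a grey line, KD-1 left and KD-2 right. In KD-2 members and all genes have higher ratios at higher GC content, most members lie below the grey line, and Mrpl57 lies far above it.

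Some of the 77 genes start close to a neighbour on the other strand. Another gene started within 1000 bases in the opposite direction for 18 of them (23.4%), against 6.91% of 20509 protein-coding genes. Mrps12 and Sars2, whose shared stretch is printed above, had log2 ratios in KD-2 of 0.14 and 0.05, and Mrps12 was at -0.04 within GC bins. Mrpl32 and Psma2, a proteasome gene, had starts 75 bases apart and ratios of -0.49 and -0.60. The pair Mrpl51 and Ncapd2, a condensin gene, had -0.60 and -0.47, and the pair Mrpl30 and Mitd1 had -0.44 and -0.60. By contrast, Mrpl57 had 0.67 where Ska3, whose start is 49 bases away, had -0.32. Across the 18 pairs rho was 0.676 in KD-2 and 0.505 in KD-1, a description in which both genes of a pair share libraries and local base composition.

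Other genes of mitochondrial translation were described beside the members. The 6 mitochondrial ribosomal protein genes with other symbols had a median log2 ratio of -0.0030 for KD-1 and -0.21 for KD-2, from Ptcd3 (26322, 30333 and 18657 reads, -0.60 in KD-2) to Gadd45gip1 (0.03). Past 1.5-fold, 1 of these 6 was lower in KD-2, where 10.2% of all genes were. In KD-1 0 of the 6 were lower, where 8.63% of all genes were higher and 5.62% lower. Of 26 genes for ribosome assembly and rRNA modification, 3 (11.5%) were lower and 0 higher past 1.5-fold in KD-2, against 10.2% and 17.1% of all genes, with a median of -0.27, a lowest ratio of -0.80 for the GTPase gene Gtpbp10 and a highest of 0.55 for Mterf4, a partner of the rRNA methyltransferase NSUN4. In KD-1, 0 of the 26 passed the threshold, with Gtpbp10 again lowest (-0.27) and the rRNA methyltransferase gene Ftsj2 highest (0.22). For the 11 translation factors the median in KD-2 was -0.26, with Mtrf1, a release factor gene, lowest (-0.73) and Tsfm highest (-0.04). Mtrf1 was the 1 of 11 past 1.5-fold lower (9.09%, near the share of all genes). In KD-1 they ranged from Mtif2, the initiation factor gene, at -0.31 to Mtfmt at 0.17, and 0 of 11 passed.

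Mitochondrial aminoacyl-tRNA synthetases and amidotransferase subunits, 20 genes that charge the tRNAs, had medians of -0.05 (KD-1) and -0.20 (KD-2). The leucine enzyme gene Lars2 was past 1.5-fold higher in both, with 18671, 464039 and 40743 reads (log2 4.41 and 1.02). It was the 1 of 20 that was higher (8.63% and 17.1% of all genes were). Past 1.5-fold lower were 0 of the 20 in KD-1 (5.62% of all genes) and 1 in KD-2 (10.2%). Gatc was the lowest in KD-1 (-0.26). The rRNA precursor Rn45s held 2.97% of the reads on genes for KD-1 and 2.18% for KD-2, the most of any gene in each. In control the gene with the most reads was Eef1a1 (1.43%). The part of Rn45s in the Lars2 count was not tested. For transcription of the mitochondrial genome and the stability of its mRNAs, 4 of 7 genes were lower past 1.5-fold in KD-2 (10.2% of all genes were) and 0 in KD-1 (5.62% of all), with a median in KD-2 of -0.63. Tefm, the elongation factor, was the lowest (-0.78) and Polrmt, the polymerase, the highest (0.33), and in KD-1 Tfb2m was lowest (-0.38) and Polrmt highest (0.17). The 10 regulators of nuclear genes for mitochondria had medians of 0.13 for KD-1 and -0.19 for KD-2, and 3 were higher past 1.5-fold in KD-1 (8.63% of all genes were) and 2 in KD-2 (17.1% of all), with 0 lower in either. Gabpa was the lowest of them in both knockdowns (-0.09 and -0.51), and Ppargc1a, with only 30, 54 and 77 reads, the highest (0.61 and 1.24). The 3 higher in KD-1 were Ppargc1a, Ppargc1b (27, 48 and 23 reads) and Myc. In KD-1 the counting intervals of Ppargc1a (-0.05 to 1.31) and Ppargc1b (-0.11 to 1.34) held 0, and that of Myc (0.48 to 0.73) did not. Nrf1 had 6715, 8426 and 6354 reads (0.10 and -0.19) and Yy1 had 6040, 7687 and 5518 (0.12 and -0.24). Of the 68 members with a promoter window, the median in KD-2 was -0.21 with and -0.41 without the GABPA motif, -0.21 and -0.34 for NRF1, -0.17 and -0.34 for YY1, -0.07 and -0.34 for the E-box, -0.31 and -0.35 for the GC box, and -0.30 and -0.34 for the TATA box, with no test. In KD-1 these medians lay between -0.08 and 0.02, and those with the GABPA motif (-0.05) and the TATA box (-0.08) were below those without (-0.03 and -0.05).

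Genes of 3 other large complexes were set beside the mitochondrial ribosome. In KD-2 the median log2 ratio was -0.39 for 82 cytosolic ribosomal protein genes, -0.35 for 39 proteasome genes and -0.17 for 35 genes of respiratory complex I, against -0.34 for the 77. In KD-1 the medians were -0.03, -0.03 and -0.04, against -0.04. Past 1.5-fold in KD-2, 15 of the 82 (18.3%), 5 of the 39 (12.8%) and 2 of the 35 (5.71%) were lower, against 10.2% of all genes, and 1, 1 and 0 were higher, against 17.1%. The 77 had a wider interquartile range in KD-2 (0.47) than these 3 groups (0.32, 0.21 and 0.30), with no test of this difference.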

How the data were processed

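The authors depleted total RNA of rRNA, sequenced 50 bp single-end reads, trimmed them with Trim Galore 0.4.1, mapped them to mm10 with TopHat 2.1.1 and deposited the raw, unnormalised count of each gene. The labels name HTSeq and the methods featureCounts, and the strand counted is not given in the sources used here. The 5 summary lines (22.97 to 25.61% of all lines' counts) were left out. Counts were scaled by the upper quartile (edgeR 4.0.16, R 4.3.3), and log2 ratios used a pseudocount of 0.5. With 1 library per condition, ratios have exact Clopper-Pearson 95% intervals for counting error only, and no p. Both knockdowns against control were tested with edgeR's quasi-likelihood test over all genes with a read (Benjamini-Hochberg), and with DESeq2 1.42.0 as an alternative, both tested on simulated data. RPKM used exon unions of the GENCODE basic annotation, to which all 77 members matched by symbol, and 24027 of 24421 genes had an exon length. Python 3.11.15 with pandas 2.3.3 and scipy 1.17.1 was used. The family and the gene lists were chosen with earlier results of these data known, and its members then follow from their symbols. Named members were the 5 highest and 5 lowest in each knockdown and in level, those past 1.5-fold, the 5 lowest p and Mrps18a, Mrps18b, Mrps18c, Mrps30 and Mrpl12, and named genes of other lists were their extremes, of which 1 is not reported here. Any further gene was picked with its values known. Alternatives were TMM, DESeq2 size factors, library totals, a pseudocount of 5, minimum means of 1 and 100 reads, folds of 2 and of 25% above 1, members left out, and, chosen after the data were seen, GC bins and the full annotation.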

Additional observations from a re-analysis of the deposited data

Results flagged for a closer look

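For 2 members the knockdown libraries lay on opposite sides of control, with both counting intervals clear of 0 and more than 1.5-fold between them. Mrpl52 was below control in KD-1 and above it in KD-2, with a log2 ratio of KD-2 to KD-1 of 0.74. Mrps6 had a log2 ratio of KD-2 to KD-1 of 0.59. With 1 library per shRNA this difference was not tested. Fibroblast markers also lay below control in KD-1 (median log2 ratio -0.90) and above it in KD-2 (0.80), and their part in these values was not tested.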

How the results depend on the processing

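The gap between subunits in KD-2 to KD-1 changed sign (below), as did 20 ratios of members named by rule (34 values, counting each setting) under another scaling or within GC bins, none of them past 1.5-fold in that comparison. Within GC bins 10 of the 77 KD-2 to control ratios turned negative, Mrpl12 (-0.16), Mrpl14 (-0.16), Mrpl2 (-0.03), Mrpl38 (-0.02), Mrpl4 (-0.26), Mrpl54 (-0.31), Mrps7 (-0.09), Mrps12 (-0.04), Mrps15 (-0.02) and Mrps34 (-0.43), and Mrpl17 turned positive (0.21). Of 232 values that answer a comparison 43 moved by more than counting error or by over 1.5 times. Library totals moved the median of all genes in KD-2 from -0.02 to 0.14, and the members' median relative to it was -0.32 with the upper quartile and -0.31 with totals. With them the KD-2 to control medians were -0.18 (all members), -0.19 (large subunit) and -0.054 (small subunit), 0 members were lower past 1.5-fold, and the KD-2 to KD-1 medians were -0.10, -0.11 and -0.068. TMM and DESeq2 size factors each left 3 members lower in KD-2 than control, and with DESeq2 size factors the KD-2 to KD-1 medians were -0.16, -0.17 and -0.13. Lower members in KD-2 against KD-1 numbered 0 under these 3 scalings (7.37 to 11.3% of all genes), under GC bins and at a fold of 2. A fold of 2 left 0 members either way in all comparisons (1.53 to 7.89% of all genes). A fold of 25% above 1 gave 3 lower in KD-1 (12.7% of all genes were), 4 higher and 40 lower in KD-2 (28.7% and 26.9% of all genes), and 6 higher and 30 lower in KD-2 against KD-1 (24.8% and 33.6%). Within GC bins the KD-2 to control median was -0.26, with 1 higher and 2 lower and a large minus small gap of -0.054, and the KD-2 to KD-1 medians were -0.13, -0.14 and -0.10. Without members over another counted gene the large minus small gap was -0.0055 for KD-2 to control and 0.046 in place of -0.040 for KD-2 to KD-1, where the large subunit median was -0.20. In the quasi-likelihood test 4 genes of all passed with TMM, 0 with library totals and 4 with a minimum mean of 10 reads, against 2, and members passing stayed at 0, with a lowest unadjusted p from 0.126 to 0.209 over the alternatives. Without 1 knockdown library the members' median was -0.34 (without KD-1) or -0.040 (without KD-2), as values with no test. With the full annotation the median level in control was 22.9 RPKM, 24.8 for the large and 20.2 for the small subunit. No paired analysis was possible because each group holds 1 library. Counting error left 7 of the 10 members past 1.5-fold in KD-2 with the threshold inside their interval, and the lack of replicates leaves the ratios of each knockdown without a test.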
